A study of Mus musculus with 9 samples.

Results

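The voltage-gated sodium, calcium and HCN channels of nucleus accumbens cells were followed through 32 genes, of 52636 in the count table. The list was named gene by gene, by channel family. It leaves out some genes of these families, and it was drawn up with earlier results of these data known, so the share of its genes above background is a description. It holds 5 pore-forming sodium channel genes and 2 sodium beta subunits, 8 pore-forming calcium channel genes, 3 alpha-2-delta, 4 beta and 6 gamma calcium channel subunits, 3 HCN genes and the sodium leak channel gene Nalcn. All 32 symbols matched an Ensembl identifier in the table, and all 32 passed the filter on low counts, which kept 39210 genes.

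RNA sequencing was done on 9 libraries of nucleus accumbens cells from male C57BL/6 mice, sorted by fluorescence for an Alexa Fluor 488 antibody stain of ChAT, the enzyme that makes acetylcholine. The naive group (titled WT, 3 libraries) had no cocaine. The groups titled RES and SUS (3 libraries each) shared the same drug history: self-administration of cocaine under a fixed ratio 1 schedule up to 40 infusions, then 10 daily progressive ratio sessions of 23 h at 1.2 mg/kg per infusion, with tissue collected on day 3 after the last. No allele or transgene is given for any group, and the WT, RES and SUS entries of the genotype field repeat the titles. Age is not given. Each sample held punches pooled from 2 to 3 mice and 5000 to 50000 sorted cells, and whether the libraries of 1 group came from separate pools is not stated, so the p-values below measure the spread between these libraries, which may be technical. The behavioural phenotype field calls the RES libraries susceptible and the SUS libraries resilient, against the titles, so RES and SUS are used here only as names.

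Total counts ran from 4471675 to 11155730 per library. Background was taken as the counts per kb of exon over 1092 olfactory receptor genes, a family that nose neurons and not striatal cells are known for, and it ran from 6.09 to 21.2 counts per kb. A level below is a gene's own count density divided by that background in the same library, so it compares genes per length. The length is that of all annotated exons of a gene, whether or not they are used in these cells. The order of genes by level thus depends on the annotation. The stained cell type was checked against its markers: 0 of 10 cholinergic interneuron markers averaged over 3 times background, and Chat itself averaged 2.32 times, with its highest value, 7.87, in SUS 2. Over the same threshold were 16 of 18 markers of medium spiny neurons, the main output cells of the striatum, 13 of 15 pan-neuronal, 13 of 15 astrocyte and 18 of 18 microglial markers. Library medians of the microglial list ran from 2.27 to 52.2 times background. The libraries are therefore described as sorted accumbens cells and not as cholinergic neurons. RES replicate 3 or SUS replicate 3 was lowest for 30 of the 32 channel genes. Results that rest on them are therefore given with and without them. A rule on the gap to the next library flagged neither as an outlier among the 6 cocaine-taking libraries. The pair was picked on the channel values themselves, so results without it are a description.

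Voltage-gated sodium channels open on depolarisation and carry the upstroke of the action potential, and calcium channels turn depolarisation into calcium entry that drives transmitter release, gene expression and firing pattern. HCN channels open on hyperpolarisation and pass a mixed cation current that paces spontaneous firing, a hallmark of striatal cholinergic interneurons. Medium spiny neurons are silent near their resting potential and use calcium channels of the Cav1, Cav2 and Cav3 families to shape the depolarised state.

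The sequence before the start of these genes was searched for short motifs. RefSeq promoter windows (build GRCm38.p6) were matched to 25 of the 32 genes. The starts are RefSeq's, and some lie far from the annotated gene start, by 158581 bases for Cacna1e and 3359 for Cacng8. The GC box GGGCGG, searched on both strands in the 250 bases before the start, was present in 11 of 25 windows, 44%, and in 44.5% of 16472 protein-coding genes. The cAMP response element TGACGTCA was in 0 of 25 windows, against 2.08% of all. CAGCACC, a core piece of the site bound by the neuronal silencer REST, was in the window of 1 gene, Nalcn, 4% against 5.55%. The median GC content was 62%, against 56% over all windows. The 150 bases before the start are shown, 5′ to 3′ on the gene's strand, for the 2 highest and the 2 lowest genes by level among the 11 whose RefSeq window lay outside the annotated gene and within 2000 bases of its start. Capitals mark GC boxes in either orientation.
Cacna2d3 (chr14:29721865-29722014, minus strand): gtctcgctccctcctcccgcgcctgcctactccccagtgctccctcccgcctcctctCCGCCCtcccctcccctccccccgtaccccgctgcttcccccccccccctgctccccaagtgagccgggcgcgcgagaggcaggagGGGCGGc
Cacna1b (chr2:24763153-24763302, minus strand): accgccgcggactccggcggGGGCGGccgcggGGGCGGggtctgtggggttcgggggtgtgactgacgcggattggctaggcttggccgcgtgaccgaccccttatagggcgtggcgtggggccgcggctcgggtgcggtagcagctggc
Cacng5 (chr11:107915056-107915205, minus strand): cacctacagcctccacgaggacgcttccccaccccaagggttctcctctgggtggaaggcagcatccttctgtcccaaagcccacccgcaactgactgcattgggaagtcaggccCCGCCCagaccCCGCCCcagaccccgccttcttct
Hcn4 (chr9:58822799-58822948, plus strand): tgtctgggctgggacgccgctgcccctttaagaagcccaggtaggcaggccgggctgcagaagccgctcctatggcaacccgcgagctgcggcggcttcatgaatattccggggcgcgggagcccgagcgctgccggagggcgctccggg
Cacna2d3 and Cacna1b, among the highest of the 32 genes, and Cacng5, among the lowest, each had 2 GC boxes in this stretch, and Hcn4, the lowest, had 0. Over the full 250 bases they had 4, 3 and 2, and Hcn4 also had 2, so no contrast between high and low genes is read from the boxes. CpG pairs numbered 12, 21, 6 and 16 in the same order, and GC content was 77.3%, 76%, 64.7% and 70.7%.

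Of the 32 channel genes, 22 averaged over 3 times background, 68.8%, against 26.3% of 21883 protein-coding nuclear genes. At 2, 5 and 10 times background the numbers were 27, 11 and 4. In all 9 libraries 7 genes exceeded 3 times, and 6 genes did so in none. Scn3a at 3.12 times lay just inside the threshold and Cacna1g at 2.62 times just outside. A gene near background cannot be told from unexpressed, since reads that fall on any exon give a count there. In these bulk samples, fewer cells of a type and less RNA per cell cannot be told apart.

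**Figure D1:**
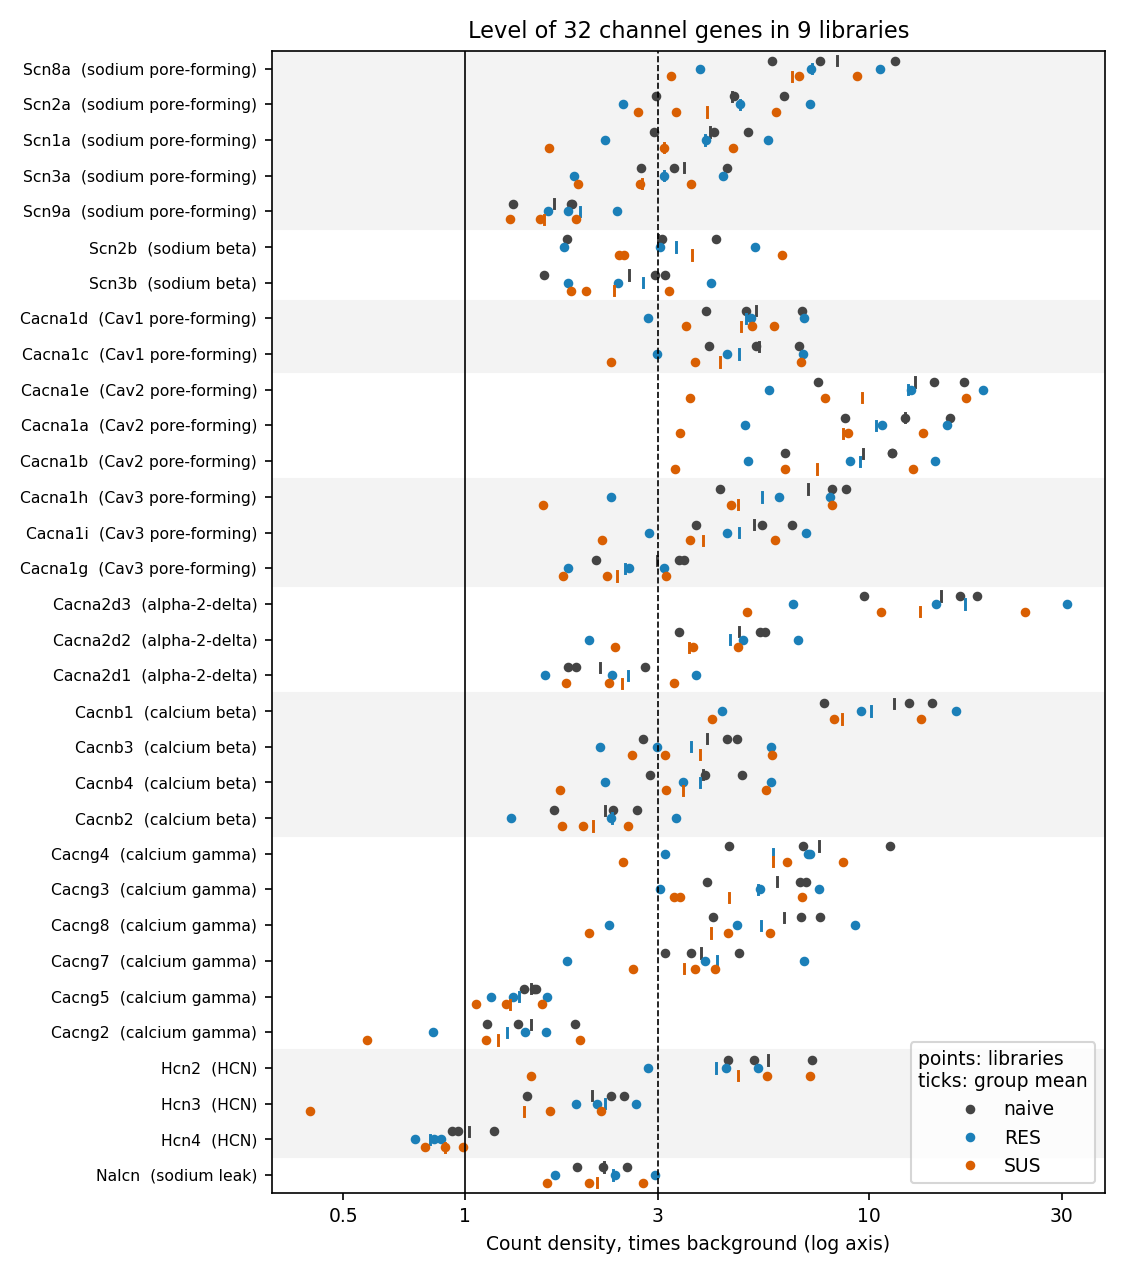
Level of each of the 32 channel genes in each of the 9 libraries, as times background on a log axis, coloured by group and grouped by role class, with the 3 times threshold marked. Cacna2d3 is highest, at a mean of 15.3 times, Hcn4 lies at background, at 0.913 times, and the lowest point is RES 3 or SUS 3 for 30 genes.

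Of the sodium channel genes, Scn8a (chromosome 15, 100869858 to 101045938 of GRCm38), which encodes Nav1.6 of the axon initial segment, was highest, with a mean of 7.33. Its level was 5.77, 11.6 and 7.57 times background in naive replicates 1 to 3, 7.18, 10.7 and 3.83 in RES, and 6.73, 9.34 and 3.25 in SUS. RES 3 and SUS 3 were the lowest libraries, and the 3 groups overlapped. Scn8a exceeded Scn1a, the Nav1.1 gene best known from inhibitory neurons, 1.72 to 2.31 times and Scn2a, the Nav1.2 gene of unmyelinated axons, 1.21 to 2.02 times within each of the 9 libraries. Scn2a averaged 4.45, Scn1a 3.69 and Scn3a, the Nav1.3 gene of the developing brain, 3.12 times background. Scn9a, the Nav1.7 gene of sensory neurons, averaged 1.72. Scn3a, Scn2a, Scn1a and Scn9a lie in the same stretch of chromosome 2 (65457118 to 66634962). Of their possible 50-base reads 6.49%, 5.76%, 4.03% and 4.04% also match another transcript. A small part of their counts could thus be lost or split between genes, since the handling of such reads is not given. Among the other listed genes the highest share was 1.83%, for Cacng8.

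The sodium beta subunits are single-pass proteins that set channel gating and membrane delivery. Scn2b (chromosome 9, 45117782 to 45130070) was at 1.79, 3.07 and 4.18 times background in naive replicates 1 to 3, 3.03, 5.23 and 1.75 in RES, and 2.40, 6.08 and 2.47 in SUS. SUS 2 and RES 2 were highest, and the 3 groups overlapped. Scn2b averaged 3.33 and Scn3b 2.55 times.

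By level, the pore-forming genes of Cav2 channels, which carry the presynaptic calcium current for transmitter release, were the highest class of pores. Cacna1e, the R-type gene (chromosome 1, 154390731 to 154884501), averaged 11.7 times background, Cacna1a, the P/Q-type gene, 10.5 and Cacna1b, the N-type gene, 8.88. Cacna1e was at 7.48, 17.2 and 14.5 times background in naive replicates 1 to 3, 12.7, 19.2 and 5.66 in RES, and 7.79, 17.4 and 3.61 in SUS. Again RES 3 and SUS 3 were low. Cacna1e exceeded Cacna1b in 9 of 9 libraries, by 1.09 times or more, whereas its ratio to Cacna1a ran from 0.857 to 1.28, so those 2 genes had no fixed order.

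The Cav1, or L-type, genes couple calcium entry to gene expression. Cacna1d (chromosome 14, 30039939 to 30491455) was at 3.95, 6.83 and 4.97 times background in naive replicates 1 to 3, 5.11, 6.92 and 2.84 in RES, and 5.13, 5.81 and 3.52 in SUS. Cacna1c averaged 4.79 times against 5.01 for Cacna1d, and their ratio within a library ran from 0.653 to 1.17, so the pair did not differ beyond the spread of the libraries. Of the exons of Cacna1d, 4.67% also belong to Chdh.

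Cav3, or T-type, channels open at low voltages and support burst firing. Cacna1h (Cav3.2) was at 4.29, 8.78 and 8.12 times background in naive replicates 1 to 3, 6.01, 8.01 and 2.30 in RES, and 4.56, 8.09 and 1.56 in SUS. Cacna1h averaged 5.75, Cacna1i (Cav3.3) 4.62 and Cacna1g (Cav3.1) 2.62 times. The order of Cacna1h and Cacna1i turned in RES 3 and SUS 3, where their ratios were 0.804 and 0.715, against 1.14 to 1.495 in the other 7 libraries.

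The alpha-2-delta subunits sit outside the membrane and carry calcium channels to the surface, and those encoded by Cacna2d1 and Cacna2d2 bind gabapentin. Cacna2d3 (chromosome 14, 28904943 to 29721864), whose subunit does not, was the highest of the 32 genes in 9 of 9 libraries. It was at 9.75, 18.6 and 16.8 times background in naive replicates 1 to 3, 14.6, 30.9 and 6.49 in RES, and 10.7, 24.4 and 5.00 in SUS. Within a library it exceeded Cacna2d2 by 2.12 to 5.14 times and Cacna2d1 by 2.80 to 9.88 times. The naive range lay inside the ranges of both cocaine groups. Cacna2d2 averaged 4.30 and Cacna2d1 2.38 times background.

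The beta subunits bind the pore inside the cell. Cacnb1, best known as the subunit of skeletal muscle and also made in brain, led the class: it was at 7.74, 14.4 and 12.6 times background in naive replicates 1 to 3, 9.57, 16.4 and 4.32 in RES, and 8.19, 13.5 and 4.09 in SUS. Its mean was 10.1, and it exceeded Cacnb3 by 1.58 to 3.20 times in every library. Cacnb3 averaged 3.81, Cacnb4 3.72 and Cacnb2 2.20 times background, and 16% of the exonic length of Cacnb4 is shared with A430018G15Rik.

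The gamma genes listed here encode TARP proteins, which traffic AMPA-type glutamate receptors and owe their name to homology with the muscle calcium channel subunit. Cacng4 (chromosome 11, 107732357 to 107794557) was at 4.52, 11.3 and 6.86 times background in naive replicates 1 to 3, 7.06, 7.16 and 3.13 in RES, and 6.28, 8.63 and 2.46 in SUS. Cacng4 averaged 6.37 and its neighbour Cacng5 1.37 times, and the first exceeded the second by 2.31 to 7.51 times within a library. Cacng3 averaged 5.24, Cacng8 5.22 and Cacng7 3.85 times, whereas Cacng2, the stargazin gene, averaged 1.31. Cacng3 and Cacng8 did not differ beyond their spread, since Cacng3 was above Cacng8 in 4 of 9 libraries.

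Of the HCN genes, Hcn2 (chromosome 10, 79716634 to 79736108) alone averaged over 3 times background, at 4.86. It was at 4.48, 7.25 and 5.19 times in naive replicates 1 to 3, 4.42, 5.32 and 2.84 in RES, and 7.15, 5.61 and 1.46 in SUS. SUS held both a high and the lowest library. Hcn3 (chromosome 3, 89146074 to 89160196) was at 1.43, 2.29 and 2.47 times in the naive libraries, 2.12, 2.65 and 1.88 in RES, and 1.62, 2.18 and 0.413 in SUS, where SUS 3 had only 32 counts. Of the exonic length of Hcn3, 17.1% overlaps Pklr. Hcn4, the pacemaker gene of the sinoatrial node, stayed between 0.752 and 1.18 times background in all 9 libraries.

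Nalcn encodes the sodium leak channel that depolarises neurons at rest. It was at 1.90, 2.20 and 2.52 times background in naive replicates 1 to 3, 2.36, 2.96 and 1.67 in RES, and 2.03, 2.76 and 1.60 in SUS, under 3 times in every library. The genes of its complex, Unc80 and Unc79, averaged 9.01 and 6.07 times, and Fam155a averaged 1.77.

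The levels differed far more between libraries than between groups. SUS 3 was the lowest library for 20 of the 32 genes and RES 3 for 10, which left Scn3b, lowest in naive 1, and Hcn4, lowest in RES 1. The highest library was RES 2 for 21 genes, naive 2 for 8 and SUS 2 for 3. The median level over the 32 genes was 3.05, 5.28 and 4.70 times background in naive replicates 1 to 3, 4.19, 6.21 and 2.22 in RES, and 3.37, 5.65 and 2.11 in SUS. Each of the cocaine groups thus held a low library, a middle one and a high one, and the naive libraries lay between those extremes. Genes over 3 times background numbered 16, 23 and 24 among the naive libraries, 21, 26 and 8 among those of RES, and 20, 25 and 8 among those of SUS. The highest library exceeded the lowest by a median of 3.53 times for the 22 genes over the threshold (2.39 to 6.19) and 2.18 times for the other 10 (1.502 to 6.41, the top value being that of Hcn3). Background made up 12.2% of the 32 genes' counts in RES 2, 35.0% in RES 3 and 42.0% in SUS 3. Of all nuclear counts it made up 25.3% in RES 2, 35.8% in SUS 3 and 50.4% in RES 3, the highest of all libraries. A low level in RES 3 was thus not particular to the channel genes.

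**Figure D2:**
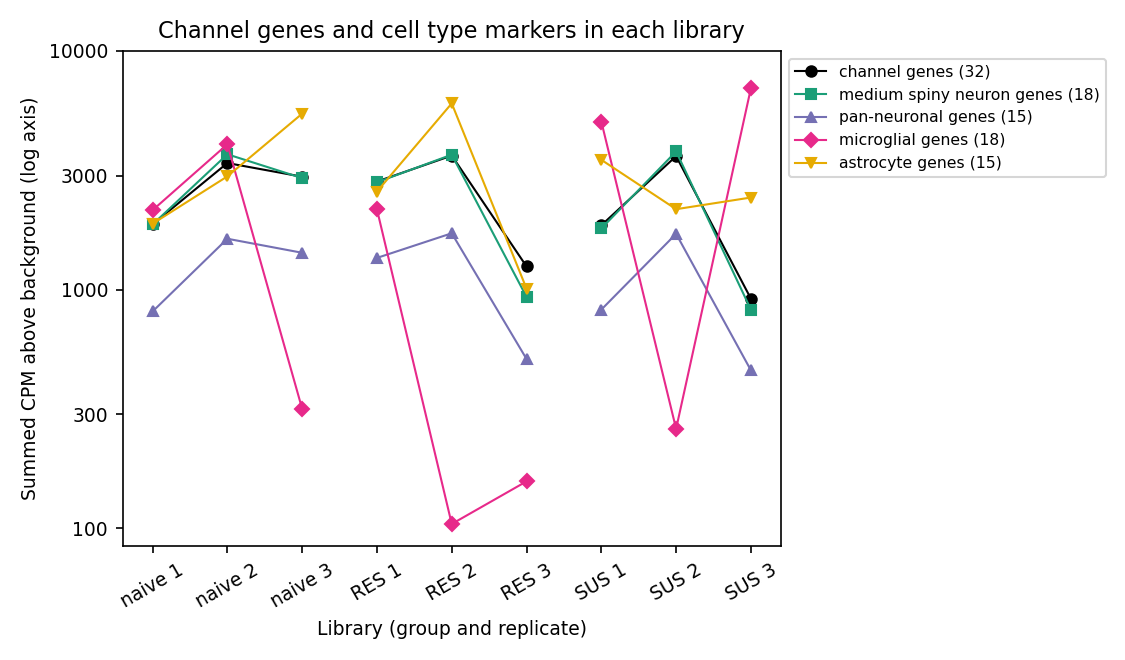
Summed CPM above background of the 32 channel genes in each library, beside the sums of the marker lists measured in the same way, on a log axis. The channel sum moves with the medium spiny and pan-neuronal sums from library to library, lowest in RES 3 and SUS 3, whereas the microglial sum takes another order.

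The channel genes moved together with the neuronal markers of the same libraries. After subtraction of background, the 32 genes summed to 1875, 3387 and 2968 CPM (counts scaled to library size) in naive replicates 1 to 3, 2833, 3639 and 1250 in RES, and 1857, 3620 and 916 in SUS. Markers of medium spiny neurons, 18 genes, summed to 1873, 3685 and 2929 CPM in the naive libraries, 2813, 3671 and 932 in those of RES, and 1802, 3788 and 824 in those of SUS. Both sums were low in the same libraries, and their ratio was 0.978 ± 0.051 (SD, n = 3) in naive, 1.11 ± 0.198 in RES and 1.03 ± 0.077 in SUS, with 1.34 in RES 3 as its highest value and 0.919 in naive 2 as its lowest. The ratio to 15 pan-neuronal markers, genes common to neurons, ran from 2.00 to 2.44, its highest value being 1.22 times its lowest. Astrocyte markers, which are not neuronal, partly followed the channel sum too. They were also highest in RES 2, at 6020 CPM, and low in RES 3, at 1009. In SUS 2 and SUS 3 they summed to 2170 and 2429, another order than that of the channel sum. The ratio to 18 microglial markers ran from 0.132 in SUS 3 to 34.9 in RES 2, a 265-fold range, which was 96.5-fold with background not subtracted and 665-fold with background set 1.5 times as high. The pan-neuronal ratio spread 1.24-fold and 1.37-fold under those settings and the medium spiny ratio 1.62-fold and 1.36-fold, against 1.46-fold as first given. These ratios share each library's background and depth, and whether neuronal content sets the channel level was not tested. The group means of the channel sum, 2743 ± 781 CPM in naive, 2574 ± 1216 in RES and 2131 ± 1373 in SUS (SD, n = 3 each), differed by less than the SD within any group.

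**Figure D3:**
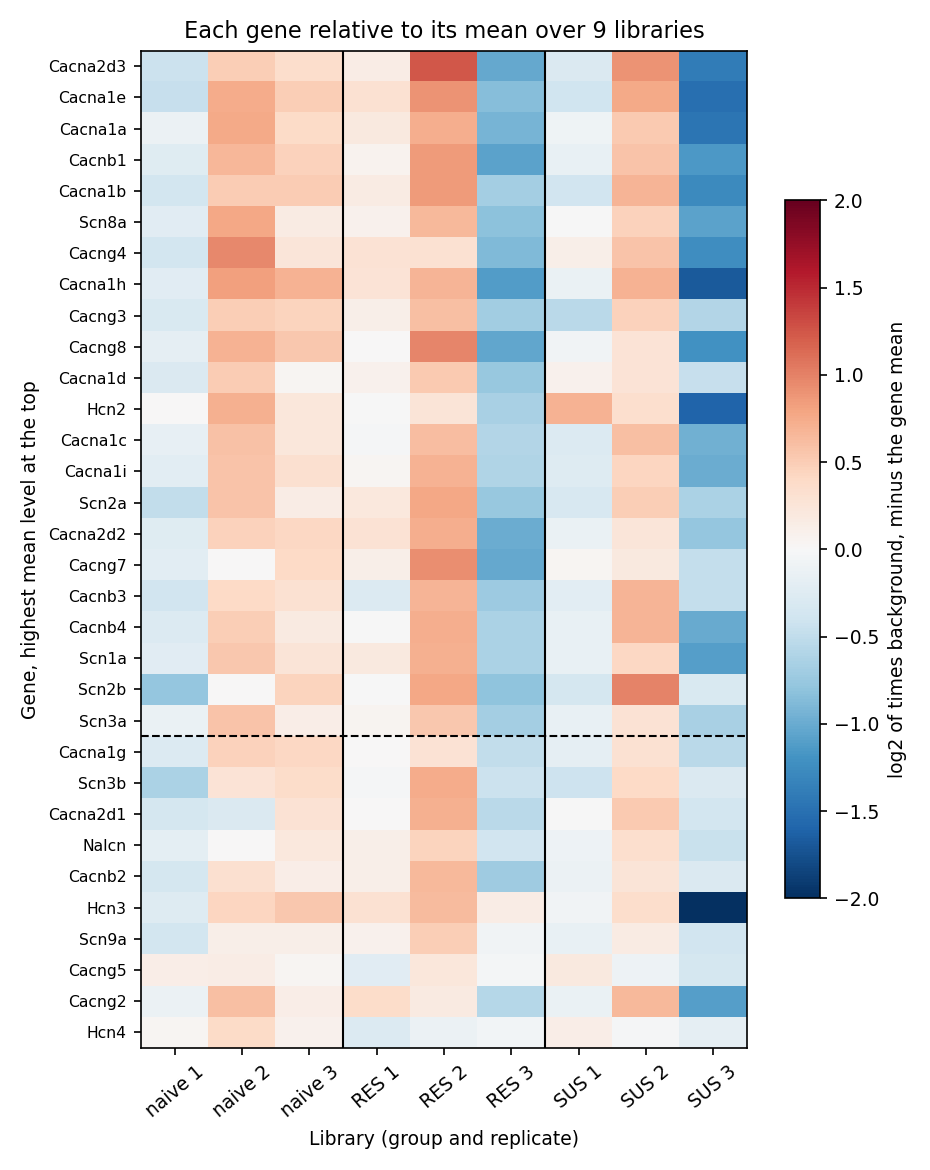
Levels of the 32 channel genes in each library relative to the gene's own mean over the 9 libraries, on a log2 colour scale. The columns of RES 3 and SUS 3 are low for nearly all genes, and the columns of RES 2, SUS 2 and naive 2 are high.

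The comparison of RES with naive asked how the channel genes differ between drug-naive mice and one of the cocaine-taking groups. The values are TMM-scaled CPM, which compare a gene between libraries. Scn9a was at 36.7, 42.9 and 46.2 CPM in naive replicates 1 to 3 and at 50.7, 52.2 and 47.0 in RES. The groups did not overlap, with a log2 fold change of 0.25 (SE 0.252, 95% interval -0.29 to 0.79), and this gene lay near background in both. Hcn2 was at 31.2, 42.6 and 32.6 CPM in naive and at 31.2, 29.2 and 20.8 in RES. The lowest naive library stood only 0.0086 CPM above the highest RES library, and the log2 fold change was -0.39 (SE 0.394, 95% interval -1.23 to 0.45), or -0.22 without RES 3. Hcn4 was at 12.4, 13.3 and 11.6 CPM in naive and at 10.2, 8.81 and 12.2 in RES, with a log2 fold change of -0.24 (SE 0.216), or -0.38 without RES 3 and -0.12 without RES 2, and the groups overlapped.

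By the edgeR quasi-likelihood test with Benjamini-Hochberg adjustment, 0 of the 32 channel genes passed at 0.05 for RES against naive, as did 0% of the 39210 genes tested, and the smallest unadjusted p of a channel gene was 0.286, for Hcn4. At an unadjusted p under 0.05 there were 0 channel genes, against 0.921% of all genes, and DESeq2 and limma-voom called 0 as well. Groups lay apart for 1 gene higher in RES (Scn9a, background 3.31%) and 1 lower (Hcn2, background 2.82%), a share near that of all genes. The log2 fold change was below 0 for 22 of 32 channel genes, against 52.6% of all genes and 65.1% of genes over 3 times background. The median over the 32 genes was -0.069, against -0.016 over all genes tested, and it was 0.15 without RES 3 and -0.27 without RES 2. Below 0 were 6 of the 32 genes without RES 3, 10 without naive 2 and 28 without RES 2. Scaled by library totals alone, which moved the median of all genes to 0.23, the channel median was 0.13. The microglial markers lay below 0 in 18 of 18 cases (median -1.29; summed levels 418 to 4153 CPM in naive and 193 to 2280 in RES), as did 13 of 14 oligodendrocyte markers (median -0.55) and 13 of 15 pan-neuronal markers (median -0.10), and their part in the channel values was not tested.

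**Figure D4:**
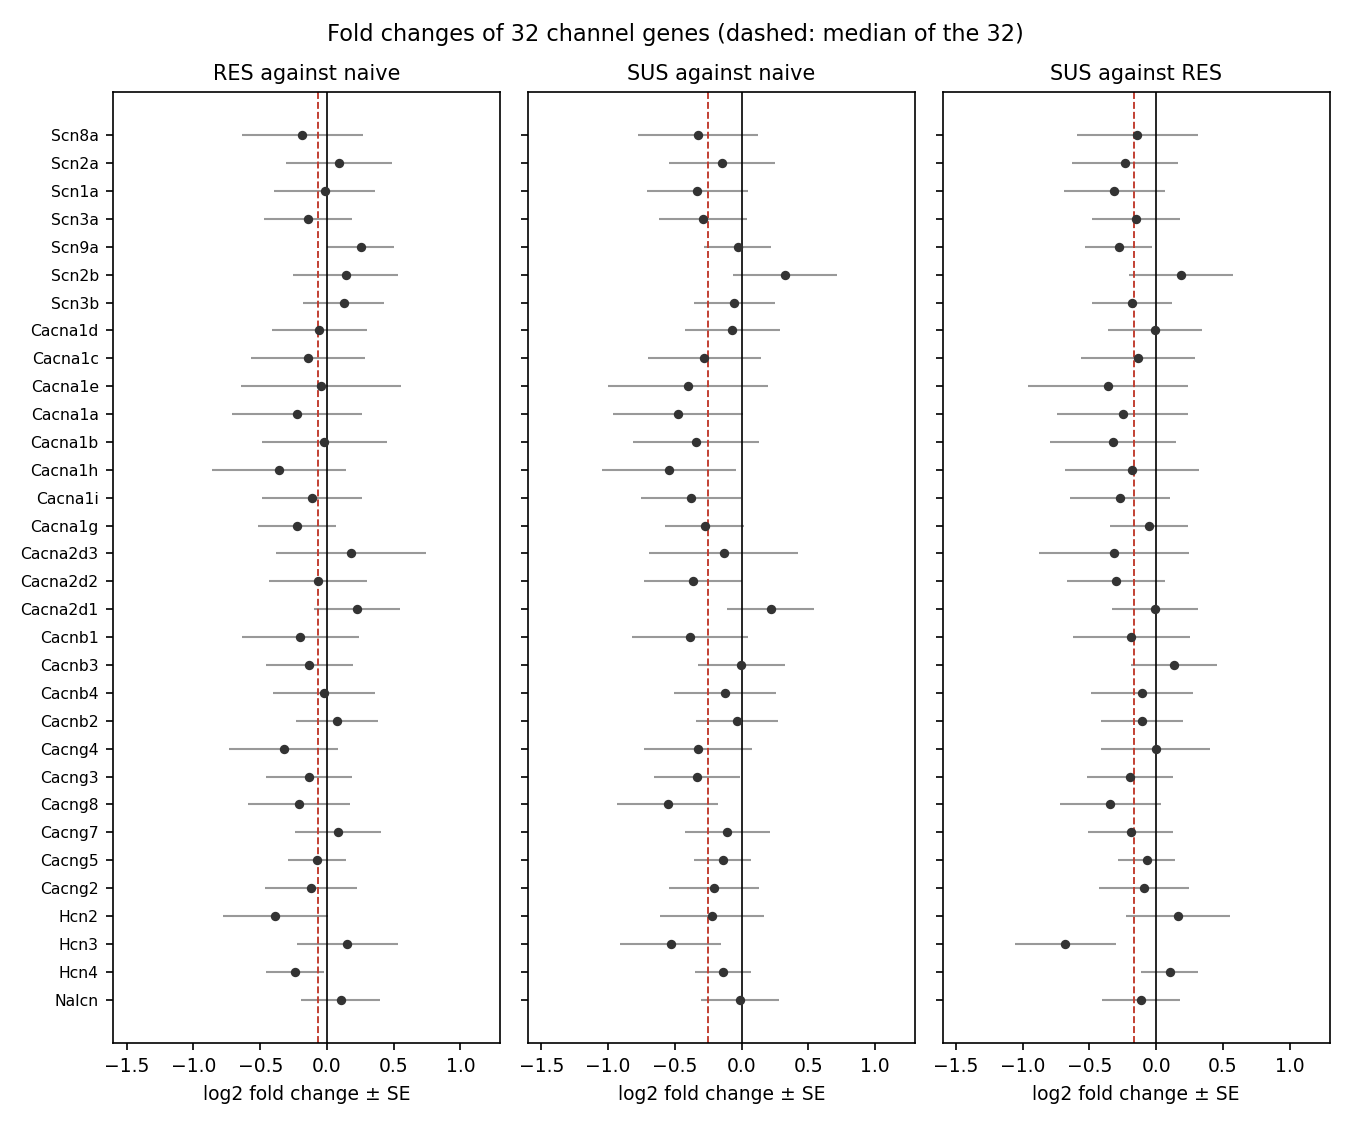
Log2 fold changes of the 32 channel genes for RES against naive, SUS against naive and SUS against RES, with bars of the SE from the edgeR fit. Dashed lines mark the median of the 32 genes. The 95% intervals, which are not drawn, all cross 0, and in the panels with SUS most estimates lie to the left of 0.

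For SUS against naive, the gene with the smallest p was Cacng8 (chromosome 7, 3390683 to 3415648), which encodes the TARP gamma-8. It was at 21.1, 32.6 and 31.4 CPM in naive replicates 1 to 3 and at 20.5, 26.5 and 10.8 in SUS. SUS 1 and SUS 3 lay under every naive library, and SUS 2 lay among them. The log2 fold change was -0.55 (SE 0.379, 95% interval -1.36 to 0.25), or -0.27 without SUS 3 and -0.85 without SUS 2. Hcn3 was at 12.9, 17.5 and 20.2 CPM in naive and 13.1, 17.96 and 3.87 in SUS, with a log2 fold change of -0.53 (SE 0.379, 95% interval -1.34 to 0.28). It was -0.12 without SUS 3 and -0.98 without SUS 2.

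Here 30 of the 32 channel genes had a log2 fold change below 0, against 47.8% of all genes and 51% of genes over 3 times background, with a median of -0.25 against 0.018 over all genes. None is a call: the edgeR quasi-likelihood test with Benjamini-Hochberg adjustment passed 0 of 32 channel genes (0% of all genes), the smallest unadjusted p was 0.165, and 0 were under an unadjusted 0.05, where 3.12% of all genes were. By limma-voom 1 of the 32 channel genes was under an unadjusted 0.05, beside 3225 of all 39210 genes. The groups overlapped for each of the 32 genes, whereas 8% of all genes had groups that did not. The direction rests largely on 1 library, since without SUS 3 the median was -0.018 and 18 genes lay below 0. Without SUS 2 the median was -0.60 with all 32 below 0. The microglial markers were 18 of 18 above 0 in the same comparison, with a median of 0.86 and summed levels of 418 to 4153 CPM in naive and 363 to 7080 in SUS. Oligodendrocyte markers were 13 of 14 above 0 (median 0.46), and 13 of 15 astrocyte markers lay below 0 (median -0.27). Of the neuronal lists, 13 of 15 pan-neuronal markers (median -0.27) and 12 of 18 medium spiny neuron markers (median -0.15) lay below 0. Their part in the channel result was not tested, and no marker of these 5 lists was at 0 in any library.

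For SUS against RES, the smallest unadjusted p belonged to Hcn3, at 19.5, 18.9 and 17.9 CPM in RES replicates 1 to 3 and 13.1, 17.96 and 3.87 in SUS. SUS 2 lay just inside the narrow RES range and the other SUS libraries under it. The log2 fold change was -0.68 (SE 0.379, 95% interval -1.49 to 0.12), with an unadjusted p of 0.092 and an adjusted p of 0.882 by the edgeR quasi-likelihood test. It was -0.27 without SUS 3, the library with 32 counts, and -1.13 without SUS 2. Scn9a was at 38.1, 47.9 and 37.2 CPM in SUS, 1 of them inside the RES range of 47.0 to 52.2, with a log2 fold change of -0.28 (SE 0.251) and adjusted p = 0.944 by edgeR.

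Channel genes below 0 numbered 28 of 32 for SUS against RES, with a median of -0.16, beside 48.8% of all genes and 46.5% of genes over 3 times background. By the edgeR test 0 of 32 passed (0% of all genes), 0 were under an unadjusted p of 0.05 (5.68% of all genes), and 0 had groups that did not overlap (7.63% of all genes). By limma-voom 2 of the 32 were under an unadjusted 0.05, beside 3367 of all 39210 genes. Without SUS 3 the median was 0.028 and 13 genes lay below 0, and without RES 2 there were 16. Without RES 3 there were 31, and without SUS 2 the median was -0.51. Microglial markers were 18 of 18 above 0 (median 2.09, 12 under an unadjusted 0.05) and oligodendrocyte markers 14 of 14 (median 1.07, 7 under it). Below 0 lay 13 of 15 pan-neuronal (median -0.18), 14 of 18 medium spiny neuron (median -0.11) and 12 of 15 astrocyte markers (median -0.24). What these have to do with the channel values was not tested.

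The last comparison set the 6 cocaine-taking libraries against the 3 naive ones, and it shares libraries with the comparisons above. Cacna1h was at 91.4, 157.8 and 155.7 CPM in naive replicates 1 to 3, 129.5, 134.5 and 51.4 in RES, and 86.8, 156.9 and 34.3 in SUS, with a log2 fold change of -0.45 (SE 0.417), or -0.27 without SUS 3 and -0.09 without both RES 3 and SUS 3. Cacng8, with RES at 24.4, 37.4 and 12.2 CPM, had a log2 fold change of -0.37 (SE 0.329) and the smallest unadjusted p by edgeR, 0.272. It was -0.23 without SUS 3 and -0.065 without both. For both genes RES 3, SUS 3 and, narrowly, SUS 1 lay under every naive library, and the other 3 did not.

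For cocaine against naive, 0 of 32 channel genes passed the edgeR test (0% of all genes), 0 were under an unadjusted p of 0.05 (1.38% of all genes) and 0 had groups lying apart (1.17% of all genes). A log2 fold change below 0 was found for 25, against 48.6% of all genes and 57.2% of genes over 3 times background, with a median of -0.17. With RES 3 and SUS 3 both left out the median was 0.065 and 11 genes lay below 0. This pair was picked for its low channel levels, and both libraries are on the cocaine side. Without naive 1 the median was -0.30. With all libraries in, the 95% intervals of the 32 genes lay between -1.34 and 1.03 here. The same bounds were -1.43 and 1.37 where RES was set against naive, -1.68 and 1.16 where SUS was, and -1.63 and 1.02 between the cocaine groups. The width differed by gene with its SE. Pan-neuronal markers lay below 0 for 13 of 15 genes in this comparison (median -0.23), medium spiny neuron markers for 11 of 18 (median -0.094) and astrocyte markers for 14 of 15 (median -0.14), and microglial markers lay above 0 for 18 of 18 (median 0.16). Their part in the channel values was not tested.

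The same families hold genes outside the list. Of 10 of these, 2 averaged over 3 times background: Scn4b, a striatal sodium beta subunit, at 6.45 times, and Cacna1s, the L-type pore of skeletal muscle, at 3.01. Of 35 genes that bind, anchor or regulate these channels, 24 did. They were led by the calmodulin gene Calm2 at 49.5 times and by Sptbn4, the spectrin of the axon initial segment, at 34.8, and Ank3, which anchors sodium channels there, was at 7.05. Pex5l, which encodes an HCN trafficking partner, averaged 2.93 and Rest 1.99.

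By the edgeR test 0 of the 10 and 0 of the 35 passed in any of the 4 comparisons. Rest, whose protein silences neuronal genes in other cells, was at 26.7, 31.4 and 31.0 CPM in the naive libraries, 23.7, 26.4 and 19.0 in RES, and 38.1, 18.5 and 48.0 in SUS. RES lay under naive for Rest without overlap (log2 fold change -0.37, SE 0.312, or -0.24 without RES 3), and the SUS libraries lay on both sides. The nearest libraries of RES and naive were at 26.4 and 26.7 CPM. RES lay under naive without overlap for 2 of the 35 partner genes, against 2.82% of all genes. Rrad, which inhibits calcium channels, had log2 fold changes of 0.86 for SUS against naive and 1.12 for SUS against RES (SE 0.587 and 0.591), with its highest library, at 35.8 CPM, in SUS 3. Without SUS 3 these were -0.044 and 0.20.

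The remaining genes named by smallest p all missed the threshold of the edgeR test. For RES against naive these were Cacng1, a muscle gamma subunit (log2 fold change 0.18), the alpha-2-delta gene Cacna2d4 (0.13) and Calm2 (-0.53). For SUS against naive they were Cacng6 (-0.44), the muscle sodium channel gene Scn4a (-0.18) and Stac2, an L-type channel adaptor (-0.37). Between SUS and RES they were Cacng6 (-0.53) and Scn11a, a sensory neuron gene (-0.24). For cocaine against naive they were Cacna1s (-0.14), Cacng6 (-0.16), Stac3 (-0.23) and the calmodulin-like gene Cabp1 (-0.26). SUS lay under RES without overlap for 1 of the 10 family genes, Scn11a, against 4.22% of all genes. Its nearest libraries were at 31.8 CPM in SUS and 31.9 in RES. Of the 35 partner genes, 27 lay below 0 when RES was set against naive and 20 when SUS was. Between SUS and RES it was 22, and for all cocaine libraries against naive 28. The 10 family genes gave 4, 7, 8 and 5 in the same order.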

How the data were processed

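The authors deposited raw counts of 52636 Ensembl mouse genes in 9 libraries. FastQC, STAR 2.5.2b, HTSeq, DESeq, DESeq2 and the build GRCm38 are named per the submitters' processing notes, without order or settings. The strand setting and annotation are not given in the sources used here, so overlapping and antisense genes cannot be separated. Groups follow the titles. GENCODE mouse release 21 gave gene positions, the length of exons and symbols (52489 IDs matched, 147 did not). From the counts, levels were computed as counts per exonic kb over those of 1092 olfactory receptor genes. RNA from other cells and from introns was not modelled.

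Genes kept by filterByExpr (39210) were TMM-scaled and tested by quasi-likelihood in edgeR 4.0.16 (R 4.3.3), p-values being adjusted by Benjamini-Hochberg over all of them at 0.05. All 3 groups shared 1 model for the pairwise tests, and the pooled cocaine libraries were set against naive in another. CPM above background subtracts each gene's exonic length times the background density. Alternatives were other scalings, no filter, DESeq2 1.42.0, limma-voom (limma 3.58.1) with sample weights, a replicate block, and each library left out. RES 3 and SUS 3 were also left out together, a pair picked for its low channel levels. The other background settings for the marker ratios were chosen after seeing the data. The tests were tried on simulated data. The channel genes, the gene lists and the tests were chosen with earlier results of these data known. Values in every library are given for the highest gene of each role class, the 2 genes with the smallest p per comparison, and genes over 3 times background whose groups lay apart. From the 2 lists of related genes, the 2 with the smallest p per comparison are named, and some genes of these families are not reported here. Promoter sequences are RefSeq's. Depth ran from 4471675 to 11155730 counts, and no 2 libraries were identical, with Spearman correlations of 0.912 to 0.967 within groups.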

Additional observations from a re-analysis of the deposited data

How the results depend on the processing

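No channel gene passed the threshold in any setting run. Over 500 alternative values of 25 named gene results the smallest adjusted p was 0.109, and 489 kept their direction. Over all genes, 1 passed for SUS against RES when scaled by library totals alone (Gm28438, edgeR adjusted p = 0.0491, named after its value was seen). The median log2 fold change of the channel genes for RES against naive was 0.13 with library totals, 0.0072 with TMM from genes over 3 times background, 0.034 with limma-voom and 0.14 without both RES 3 and SUS 3. It ran from -0.27 to 0.15 as each library was left out. For channel genes over 3 times background it was 0.089 with totals and 0.12 without both, and ran from -0.30 to 0.13. For SUS against naive the median ran from -0.60 to -0.018 and for SUS against RES from -0.51 to 0.028 (-0.60 to 0.075 over 3 times background). For cocaine against naive it ran from -0.30 to -0.035 and was 0.065 without both (0.034 over 3 times background).

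Single genes turned as follows. With library totals, Hcn4 was at 0.056 for RES against naive, and Cacna1s and Cacng6 at 0.067 and 0.036 for cocaine against naive. Cacna2d4 was at -0.0034 for RES against naive with limma-voom and at -0.0061 without both RES 3 and SUS 3. Without both, Rrad was at -0.037 for SUS against naive and Cacng6 at 0.47 for SUS against RES. As each library was left out, Rrad ran from -0.044 to 1.35, and Cacng6 from -0.84 to 0.061 for SUS against RES and from -0.47 to 0.23 for cocaine against naive. Channel genes whose groups lay apart numbered 0 for RES against naive with totals and 1, Scn9a, with TMM from genes over 3 times background. For SUS against naive there was 1, Hcn4, with upper-quartile factors. For SUS against RES there was 1, Hcn3, with DESeq2 size factors, and 2, Hcn3 and Scn9a, with upper-quartile factors. All of these genes averaged under 3 times background. The share of all genes lying apart is not given for these scalings. With the main scaling it was 6.13%, 8% and 7.63% in the same order of comparisons. With totals alone the median of all genes moved to 0.23 where RES was set against naive, -0.21 between SUS and RES and 0.14 for all cocaine libraries. At 5 times background 11 channel genes counted. The causes were not tested.

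Same-numbered libraries did not pair, with correlations of -0.217 to 0.212 over 9 pairs and 0 of 9 libraries closest to their own number. A replicate block gave medians of -0.15, -0.35, -0.19 and -0.24 in the order of the report, and 0 calls.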
